A study of Homo sapiens with 6 samples.

Results

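The genes described here are 39 interferon-stimulated and RNA-sensing genes, taken by symbol from a table of 58735 genes. They comprise 4 RNA sensors, 1 adaptor, 5 transcription factors, and 6 genes of enzymes that bind double-stranded RNA and their relatives. The rest are 7 genes of the ISG15 system and the TRIM ligases, and 16 antiviral effectors. RNA-seq was performed on HGC-27 cells, an established line of human gastric cancer, to compare cells depleted of ACAT2 (shACAT2, 3 libraries) with control cells (shNC, 3 libraries). ACAT2 is the cytosolic acetyl-CoA acetyltransferase, which joins acetyl-CoA units at the start of sterol synthesis. Both groups received a pSIH-H1-Puro lentiviral vector for 24 h and were then selected with puromycin for 7 days. The shNC cells carried pSIH-H1-Puro-shNC and are labelled WT in genotype. The shACAT2 cells carried pSIH-H1-Puro-shACAT2 and are labelled as ACAT2 knockdown. Each group is a selected pool of cells rather than a set of clones, and the labels do not say which ACAT2 hairpin was used. The series calls the 3 libraries of a group biological replicates but does not describe separate cultures, so the p-values measure the spread between these libraries, which may in part be technical.

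Interferons are secreted when cells detect viral RNA or DNA. RIG-I (DDX58) and MDA5 (IFIH1) sense double-stranded RNA in the cytosol and signal through the adaptor MAVS, while TLR3 does so in endosomes. The transcription factors IRF3 and IRF7 then switch on the interferon genes. Type I interferon acts through its receptor and the kinases JAK1 and TYK2 on a complex that holds STAT2 and IRF9, which binds the interferon-stimulated response element in the promoters of the stimulated genes. Type II interferon acts through another promoter element, the gamma-activated site.

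The reference promoters of the genes were searched for these elements, because they are the DNA letters that the stimulated genes share. In RefSeq windows of GRCh38.p14, from 250 bases before to 50 bases after the annotated start, 30 of the 39 genes had a sequence. The 9 genes without one were DHX58, IRF3, IRF7, OAS2, OASL, USP18, TRIM22, IFIT2 and MX2. The core of the response element was written as GAAANNGAAA and looked for on both strands, with overlapping matches counted separately. It was present in 17 of the 30 windows (56.7%), against 1255 of 35116 promoters of the same length (3.57%). The gamma-activated site, written as TTCNNNGAA, was present in 7 of the 30 (23.3%), against 7.66% of all promoters. The stretches below were chosen to show cores in a sensor, an RNA-binding enzyme and several effectors, and, for contrast, the promoter of TRIM25, the only gene of the 39 that passed the test, which held no core in its window. They read 5′ to 3′ on the strand of the gene, the capitals mark each core as it reads on that strand, and bases that GENCODE 29 places in an exon are left out. A core on the other strand starts with TTTC and ends with TTTC.
IFIH1, chr2:162318813-162318839, minus strand: ctTTTCTGTTTCccgcggtgtccttaa
OAS3, chr12:112938316-112938351, plus strand: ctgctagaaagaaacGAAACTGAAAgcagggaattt
ISG15, chr1:1013369-1013414, plus strand: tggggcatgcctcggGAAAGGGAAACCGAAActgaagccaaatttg
IFIT1, chr10:89392492-89392544, plus strand: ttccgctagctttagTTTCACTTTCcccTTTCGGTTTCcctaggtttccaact
IFIT3, chr10:89327826-89327893, plus strand: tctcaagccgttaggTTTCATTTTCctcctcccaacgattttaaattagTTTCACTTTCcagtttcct
IFI6, chr1:27672261-27672363, minus strand: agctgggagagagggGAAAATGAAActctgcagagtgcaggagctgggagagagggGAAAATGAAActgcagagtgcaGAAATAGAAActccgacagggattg
IFI27, chr14:94110613-94110665, plus strand: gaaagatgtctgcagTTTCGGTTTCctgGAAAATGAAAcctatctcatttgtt
IFI44L, chr1:78620269-78620308, plus strand: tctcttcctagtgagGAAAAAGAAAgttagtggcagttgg
TRIM25, chr17:56914081-56914180, minus strand: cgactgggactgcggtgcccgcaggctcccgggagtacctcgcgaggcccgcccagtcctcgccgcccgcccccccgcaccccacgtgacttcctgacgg

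In the windows shown, the cores of IFIH1, IFIT1 and IFIT3 read on the other strand, IFI27 has 1 core in each direction, and in ISG15 2 cores overlap. The stretch of IFIH1 opens inside a further core that runs into an exon and is not marked. Levels overlapped between genes with and without a core. The 17 genes with a core had a median of 0.895 FPKM in shNC cells (range 0 to 14.8), and 9 of them reached a mean of 1 FPKM in either group. The 13 genes without a core had a median of 0.858 FPKM (range 0 to 48.1), and 7 of them did. Only 1 annotated start per gene and the exact string were searched. These 13 genes may therefore hold the element elsewhere or with other letters. FPKM is fragments per kilobase of gene length, divided by a denominator per library, so levels can be compared between genes. The authors' denominator was not the number of fragments on genes. In shACAT2-1 it was 15182806, below 15867286 fragments, and in the other libraries it was above their fragments.

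Values in the 3 libraries of a group are given below in the order of replicates 1, 2 and 3. As a check of the labels, ACAT2 was measured at 14.2, 11.7 and 12.7 FPKM in shNC and at 6.19, 5.46 and 6.05 FPKM in shACAT2 cells, a log2 fold change of −1.01 (limma adjusted p = 0.0059, and 0.051 without shNC-3). Of its exon bases, 52.3% are shared with genes on the opposite strand, so part of its signal is uncertain. The libraries held 14086416 to 16067486 fragments on genes. The library shACAT2-3 stood apart. It alone had a fragment for 7477 genes, while each other library was alone in this for 416 to 657. Genes that were silent in the other 5 libraries received 0.743 fragments per kilobase in shACAT2-3, against 0.0473 to 0.0770 for the same measure in the others, and this rate is given below beside the low genes. Among pairs of 1 group, chi-square per gene was 1.73 for shNC-2 with shNC-3 and 12.1 to 46.0 for the rest, so this pair was the closest by far. Of 5 epithelial markers, EPCAM, KRT18 and KRT19 reached at most 0.212 FPKM, KRT8 lay at 0.385 to 0.785 FPKM, and CDH1 was higher in shACAT2 cells at 0.120 to 0.222 against 0.608 to 1.15 FPKM (limma-voom adjusted p = 0.006). Of 6 gastric markers, TFF1 and GKN1 had no fragment and the others reached at most 0.419 FPKM. PTPRC, the common leukocyte marker, reached at most 0.0727 FPKM. The summed FPKM of 7 leukocyte markers was 0.231 to 0.525 in shNC and 0.681 to 1.06 in shACAT2 cells, most of it from CD14 in 5 of the 6 libraries. That of 3 fibroblast markers was 91.4 to 95.6 and 163 to 183, most of it from COL1A1 (57.9 to 67.0 and 108 to 139). LUM lay at 27.7 to 33.5 and 43.1 to 53.9 FPKM, while PDGFRB overlapped at 0.553 to 0.815 and 0.792 to 1.12. Of 2 mesenchymal markers, VIM lay at 246 to 292 and 340 to 461 FPKM, and CDH2 reached at most 0.0808. The part of any of these shifts in the results below was not tested.

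In shACAT2 cells 1 of these genes, TRIM25, fell and none rose past the test. Of the 39 genes, 19 reached a mean of 1 FPKM in either group and were tested, and 20 did not. None of the 19 was called higher in shACAT2 cells by limma (adjusted p under 0.05), where 3.3% of all 13832 genes tested were called higher. The 1 gene called lower was TRIM25, or 5.26% of the 19, where 1.81% of all genes tested were called lower. The log2 fold changes of the 19 ran from −0.69 to 0.41, with 9 above and 10 below 0 and a median of −0.03, beside a median of 0.02 over all genes tested. At an unadjusted p under 0.05 limma found 0 of the 19 higher and 2 lower, TRIM25 and ADAR, beside 12.8% and 10.7% of all genes tested. Limma-voom on the fragments, for the 16299 genes with at least 10 fragments in 3 libraries, covered 29 of the 39 and again called TRIM25 alone, or 3.45%, where it called 2.84% of all its genes lower. At an unadjusted p under 0.05 it held 5 of the 29, HERC6 above and TRIM25, ADAR, IFI27 and IRF7 below, beside 12.5% above and 11.6% below over all its genes. The other 10 genes were too low for either fit. The summed FPKM of all 39 was 178, 169 and 167 in shNC and 167, 154 and 144 in shACAT2 cells, so the groups met at their edges.

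**Figure D1:**
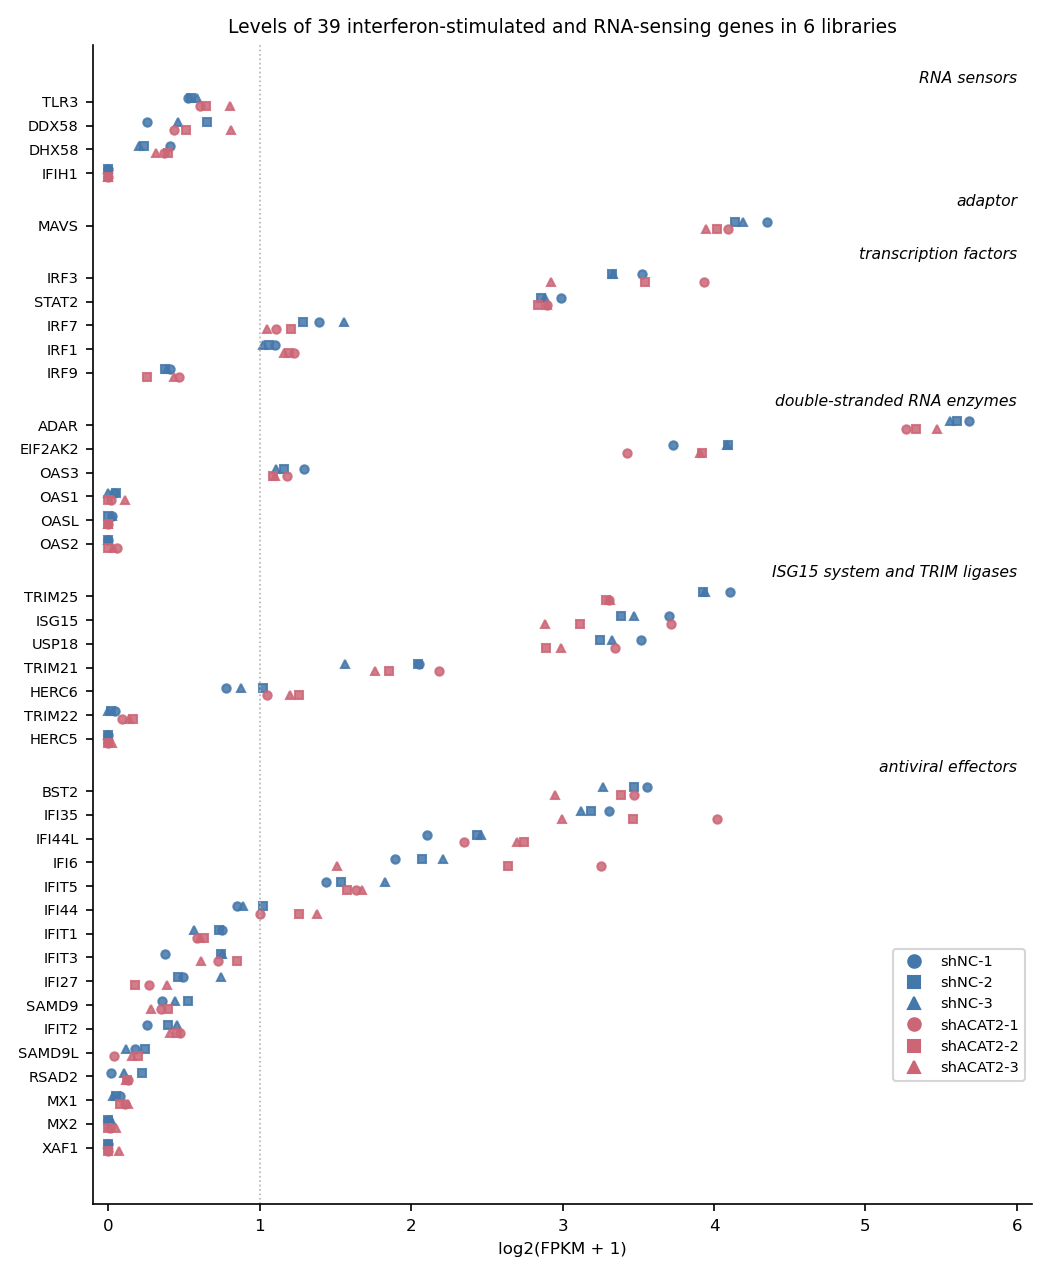
Levels of the 39 genes, ordered by role and then by mean, as log2(FPKM + 1) on the horizontal axis. Blue marks are the 3 shNC and red marks the 3 shACAT2 libraries, with the replicate number given by the shape, and the dotted line is 1 FPKM. The genes spread from no fragment (IFIH1) to a mean of 48.1 FPKM in shNC cells (ADAR), and TRIM25 is the gene whose colours lie far apart for their spread.

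The range of levels was wide. In shNC cells ADAR lay above 94.7% of the genes tested, MAVS above 81.8%, TRIM25 above 78.0% and EIF2AK2 above 77.7%, with means of 48.1, 17.7, 14.9 and 14.8 FPKM. The last 2 of these did not differ beyond their spread. MAVS lay above them by a narrow gap (lowest value 16.6, against a highest of 16.2 FPKM in TRIM25), and ADAR alone stood clear. ISG15, BST2, IRF3, USP18 and IFI35 followed at means of 10.5, 9.81, 9.53, 9.31 and 8.24 FPKM, with neighbouring ranges that overlapped. Of the 16 antiviral effectors, 10 had means under 1 FPKM in both groups, as had all 4 RNA sensors and OAS1, OAS2 and OASL.

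Among the RNA sensors no gene reached 1 FPKM. TLR3, the endosomal sensor, was measured at 0.437, 0.459 and 0.50 FPKM in shNC and at 0.519, 0.564 and 0.743 FPKM in shACAT2 cells. The shACAT2 libraries all lay above the shNC libraries in FPKM, though not in fragments (45 to 58 against 53 to 75), and limma-voom on the wider set did not call the gene (log2 fold change 0.36, 95% interval −0.12 to 0.84, adjusted p = 0.337). DDX58, which encodes RIG-I, was measured at 0.195, 0.567 and 0.373 FPKM in shNC and at 0.348, 0.428 and 0.75 FPKM in shACAT2 cells. The groups overlapped, and the interval of the limma-voom log2 fold change was −0.49 to 1.39. DHX58 (LGP2), a regulator of the other cytosolic sensors, was measured at 0.323, 0.177 and 0.151 FPKM in shNC and at 0.291, 0.313 and 0.243 FPKM in shACAT2 cells, again with overlap (limma-voom interval −0.37 to 1.28). IFIH1, which encodes MDA5, had 0 fragments in all 6 libraries, which allows up to 0.0341 to 0.0391 FPKM per library (3 fragments). At the rate of silent genes, a gene of its length would have received 3.79 fragments in shACAT2-3. The limit covers counting error only.

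MAVS, the mitochondrial adaptor of RIG-I and MDA5, was by contrast well expressed. It lies on GRCh38 chromosome 20 from 3846799 to 3876123 (ENSG00000088888). Its FPKM was 19.4, 16.6 and 17.3 in shNC and 16.1, 15.2 and 14.4 in shACAT2 cells. All 3 shACAT2 libraries lay below all 3 shNC libraries, by a narrow gap, and the log2 fold change of −0.21 (95% interval −0.45 to 0.04) did not pass (limma adjusted p = 0.281).

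None of the 4 transcription factors tested was called. STAT2, the interferon-specific STAT, was measured at 6.93, 6.23 and 6.37 FPKM in shNC and at 6.44, 6.14 and 6.44 FPKM in shACAT2 cells. Its interval was the narrowest of the 19 genes at −0.23 to 0.17 around −0.03 (limma adjusted p = 0.852). IRF9, its DNA-binding partner, was low at 0.327, 0.293 and 0.306 FPKM in shNC and 0.382, 0.190 and 0.351 FPKM in shACAT2 cells, and 48.4% of its exon bases are shared with AL136295.5 on the same strand, so its fragments are uncertain. The groups overlapped for both partners.

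IRF3, the constitutive factor that responds to MAVS signalling, had the widest spread of the factors. It was measured at 10.5, 9.02 and 9.08 FPKM in shNC and at 14.3, 10.7 and 6.59 FPKM in shACAT2 cells. The shACAT2 libraries lay on both sides of the shNC libraries, and the log2 fold change was 0.07 (95% interval −0.50 to 0.64), turning to −0.16 without shACAT2-1. Of its exon bases, 19.3% are shared with BCL2L12 on the opposite strand.

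IRF7, the inducible factor that amplifies interferon production, was measured at 1.62, 1.43 and 1.94 FPKM in shNC and at 1.15, 1.30 and 1.07 FPKM in shACAT2 cells. The groups did not overlap, but the log2 fold change of −0.29 (95% interval −0.59 to 0.01) was not called (limma adjusted p = 0.225). IRF1, a factor induced strongly by type II interferon, went the other way at 1.15, 1.08 and 1.03 against 1.33, 1.28 and 1.23 FPKM. Its log2 fold change was 0.13 (95% interval −0.14 to 0.40, limma adjusted p = 0.548), also without overlap, and 22.0% of its exon bases are shared with other genes on the opposite strand. Across the 19 genes tested, 2 lay wholly above in shACAT2 cells (10.5%, against 16.2% of all genes tested), IRF1 and HERC6, and 4 lay wholly below (21.1%, against 14.5%), IRF7, ADAR, TRIM25 and MAVS. With 3 libraries against 3, an exact two-sided permutation test of any one gene cannot go below p = 0.1. Leaving out a library can only keep or raise these counts, so a rise is no result about these genes. Without shACAT2-1 they were 4 above and 7 below, and without shACAT2-3 they were 5 above and 4 below. The shares over all genes with those libraries left out were not computed.

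**Figure D2:**
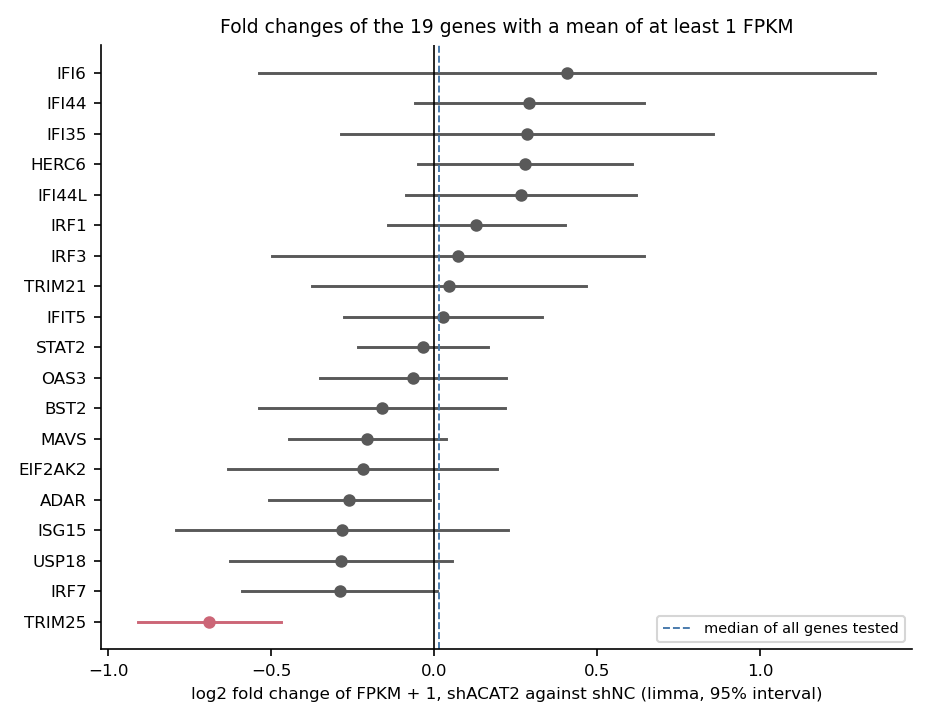
Log2 fold changes of FPKM + 1 between shACAT2 and shNC cells for the 19 genes that reached 1 FPKM on average in a group, with 95% intervals from limma. The dashed line is the median of all genes tested, and red marks the gene called at adjusted p under 0.05. Only the interval of TRIM25 (−0.91 to −0.47) lies far from 0, that of ADAR ends at −0.01, and that of IFI6 is the widest.

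Of the enzymes that act on double-stranded RNA, all 3 that were tested had negative log2 fold changes, none of them called. ADAR, which converts adenosine to inosine in double-stranded RNA and so keeps a cell's own RNA from being sensed, lies on chromosome 1 from 154582057 to 154628013 (ENSG00000160710). It was measured at 50.5, 47.7 and 46.2 FPKM in shNC and at 37.5, 39.3 and 43.3 FPKM in shACAT2 cells, on 5524 to 7719 fragments. The shACAT2 libraries lay below the shNC libraries without overlap. The means were 48.1 ± 2.18 and 40.1 ± 2.96 FPKM (SD, n = 3 each), and the log2 fold change of −0.26 (95% interval −0.51 to −0.01) had a limma adjusted p of 0.191.

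EIF2AK2 encodes PKR, the kinase that halts translation when bound to double-stranded RNA. It was measured at 12.3, 16.1 and 15.9 FPKM in shNC and at 9.72, 14.1 and 14.0 FPKM in shACAT2 cells. The replicate 1 libraries were lowest in both groups, the groups overlapped, and the log2 fold change was −0.22 (95% interval −0.63 to 0.19, limma adjusted p = 0.497). EIF2AK2 lay lower in shACAT2 cells in all 3 same-numbered pairs, and its limma adjusted p with the replicate block was 0.095. OAS3 and BST2 also lay lower in all 3 pairs, with 0.708 and 0.212 under the block. The pairing of replicates 2 and 3 was not clear. For these and the same-numbered pairs below, the share of all genes that agree in 3 pairs was not computed. Of the oligoadenylate synthetase family, OAS3 alone reached 1 FPKM, at 1.45, 1.23 and 1.15 in shNC and 1.26, 1.12 and 1.15 in shACAT2 cells (log2 fold change −0.06, 95% interval −0.35 to 0.22). OAS1 had 0 to 3 fragments in shNC and 0 to 6 in shACAT2 libraries, the 6 in shACAT2-3, where silent genes of that length would receive 3.67. OAS2 had none in shNC and 4, 0 and 2 in shACAT2 libraries, and OASL had 1, 0 and 1 in shNC and none in shACAT2 libraries. At this depth these 3 genes were at or near the floor in both groups.

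TRIM25, the ubiquitin ligase that modifies RIG-I and is also an ISG15 ligase, fell in shACAT2 cells. It lies on chromosome 17 from 56836387 to 56914080 (ENSG00000121060). Its FPKM was 16.2, 14.2 and 14.3 in shNC and 8.89, 8.75 and 8.93 in shACAT2 cells, on 1273 to 2361 fragments. The shACAT2 libraries lay almost on one value, far below the lowest shNC library. Means were 14.9 ± 1.14 and 8.86 ± 0.0977 FPKM (SD, n = 3 each), a change of −40.6%, and limma gave a log2 fold change of −0.69 with a standard error of 0.09 (adjusted p = 0.013). Limma-voom on the wider set gave −0.75 (adjusted p = 0.006). In bulk RNA, fewer cells that express a gene and less of its RNA per cell cannot be told apart. Of its exon bases, 8.80% are shared with other genes. The size held with any library left out (−0.72 to −0.63), but the call was lost without any single shNC library (limma adjusted p = 0.056, 0.075 and 0.084 in replicate order), without shACAT2-2 (0.070), and when shNC-2 was averaged with shNC-3 (0.076).

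The partners of TRIM25 in the ISG15 system were not called. ISG15, the ubiquitin-like protein itself, was measured at 12.0, 9.44 and 10.1 FPKM in shNC and at 12.1, 7.67 and 6.37 FPKM in shACAT2 cells, with overlap and a log2 fold change of −0.28 (95% interval −0.79 to 0.23), which moved to −0.52 without shACAT2-1 and to −0.11 without shACAT2-3. USP18, the protease that removes ISG15, was measured at 10.4, 8.49 and 9.02 against 9.16, 6.42 and 6.95 FPKM (log2 fold change −0.29, 95% interval −0.63 to 0.05). It too lay lower in all 3 same-numbered pairs, with an adjusted p of 0.064 under the replicate block. USP18 has a near-identical copy, USP41, and how the counting divided their reads is not given in the sources used here.

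HERC5, the main human ISG15 ligase, had 1 fragment in shACAT2-3 and none elsewhere, where a silent gene of its length would receive 3.54 in shACAT2-3. HERC6, a related ligase, was measured at 0.711, 1.03 and 0.831 FPKM in shNC and at 1.07, 1.39 and 1.30 FPKM in shACAT2 cells. Its groups did not overlap, and its log2 fold change was 0.28 in limma (95% interval −0.05 to 0.61) and 0.55 in limma-voom on the wider set (95% interval 0.10 to 1.00, adjusted p = 0.127). TRIM21, a cytosolic antibody receptor and ligase, lay at 1.95 to 3.15 FPKM in shNC and 2.38 to 3.55 FPKM in shACAT2 libraries (log2 fold change 0.05, 95% interval −0.38 to 0.47). TRIM22, an antiviral ligase, had 3, 1 and 0 fragments in shNC and 6, 12 and 9 in shACAT2 libraries, the 9 beside 4.47 at the rate of silent genes in shACAT2-3. Its shACAT2 libraries were the higher ones, at levels of at most 0.120 FPKM, and it was too low for either fit.

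**Figure D3:**
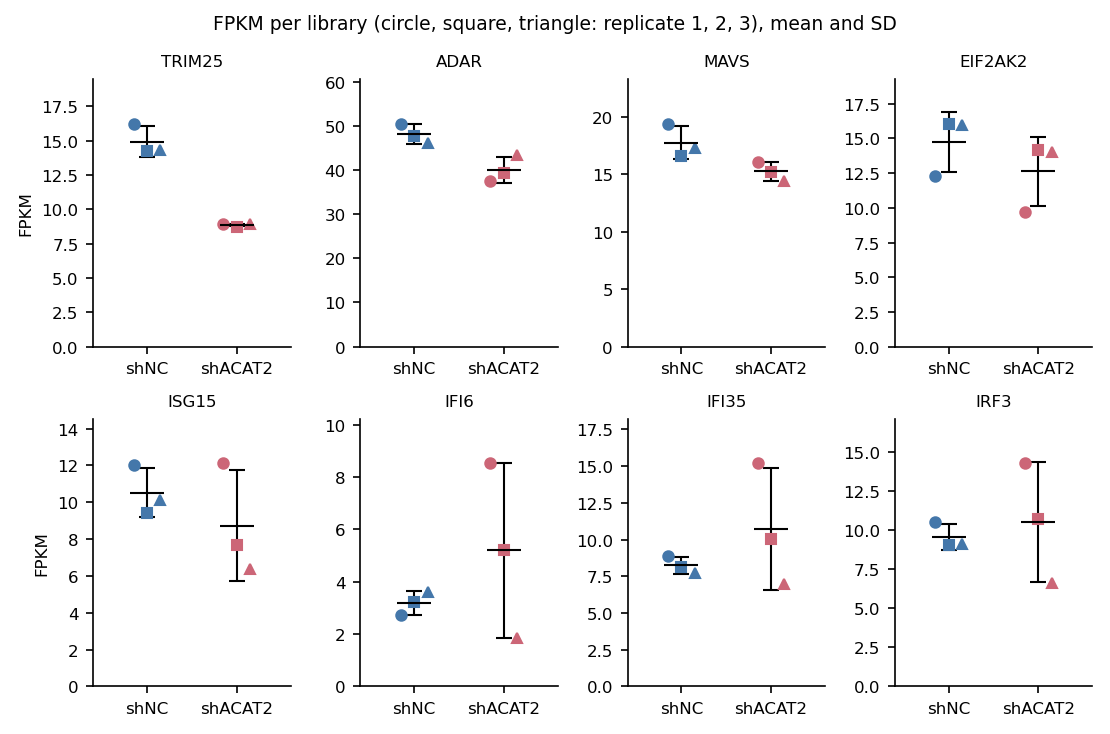
FPKM per library on linear axes from 0 for TRIM25, ADAR, MAVS, EIF2AK2, ISG15, IFI6, IFI35 and IRF3. Points are libraries, with circles, squares and triangles for replicates 1, 2 and 3, and the bars are the mean and SD of 3 libraries. In TRIM25 the shACAT2 points sit at 8.75 to 8.93 under shNC points of 14.2 to 16.2. In MAVS, ISG15, IFI6, IFI35 and IRF3 the shACAT2 points run from high to low, with shACAT2-1 highest and shACAT2-3 lowest.

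Of the 16 antiviral effectors, 6 reached 1 FPKM, and none was called. Their log2 fold changes ran from −0.16 (BST2) to 0.41 (IFI6), 5 above and 1 below 0. IFI6, a mitochondrial and endoplasmic reticulum protein, had 36, 45 and 54 fragments in shNC and 112, 75 and 24 in shACAT2 cells, or 2.72, 3.21 and 3.62 against 8.53, 5.22 and 1.85 FPKM. The shACAT2 group held both the highest values and the lowest, and the interval of the log2 fold change was −0.54 to 1.35 (limma adjusted p = 0.590). The value turned on single shACAT2 libraries. In limma the log2 fold change was 0.01 without shACAT2-1 and 0.89 without shACAT2-3 (adjusted p = 0.058). In limma-voom on the wider set, leaving out shACAT2-3 moved it from 0.46 (adjusted p = 0.606) to 1.05 (adjusted p = 0.034), the only fit in which IFI6 was called.

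IFI35, a partner of the STAT-binding protein NMI, spread in the same order, at 15.2, 10.0 and 6.96 FPKM in shACAT2 against 8.88, 8.13 and 7.70 FPKM in shNC cells (log2 fold change 0.29, 95% interval −0.28 to 0.86). Its log2 fold change was 0.02 without shACAT2-1 and 0.54 without shACAT2-3. IFI44 and IFI44L, neighbouring genes on chromosome 1, were measured at 0.802 to 1.03 against 1.00 to 1.6 FPKM and at 3.29 to 4.50 against 4.10 to 5.70 FPKM. Both had overlapping groups, with log2 fold changes of 0.29 and 0.27 and limma adjusted p values of 0.290 and 0.333. Both lay higher in shACAT2 cells in all 3 same-numbered pairs, with limma adjusted p of 0.197 and 0.059 under the replicate block. IFIT5, an RNA-binding protein of the IFIT family, lay at 1.71 to 2.54 against 1.98 to 2.19 FPKM (log2 fold change 0.03, 95% interval −0.28 to 0.33). BST2 (tetherin), which holds budding virus at the cell surface, lay at 8.60 to 10.7 against 6.73 to 10.1 FPKM (log2 fold change −0.16, 95% interval −0.54 to 0.22).

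The other 10 effectors lay below 1 FPKM, and several were at the floor. IFIT1, which binds foreign RNA caps, had 48, 49 and 38 fragments in shNC and 35, 42 and 36 in shACAT2 libraries. Its relatives IFIT2 and IFIT3 had 12 to 26 and 12 to 31 fragments in shNC and 20 to 25 and 21 to 35 in shACAT2 libraries, so all 3 overlapped. SAMD9 and SAMD9L, paralogous restriction factors, had 29 to 49 and 10 to 21 fragments in shNC and 22 to 36 and 3 to 17 in shACAT2 libraries.

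IFI27, one of the genes most sensitive to type I interferon, had 26, 25 and 48 fragments in shNC and 13, 9 and 19 in shACAT2 cells. All shACAT2 libraries lay below all shNC libraries, and the limma-voom log2 fold change on the wider set was −1.20 (95% interval −2.08 to −0.32, adjusted p = 0.098), which did not pass. MX1, a dynamin-like antiviral GTPase, had 7, 5 and 3 fragments in shNC and 10, 8 and 12 in shACAT2 libraries, the 12 beside 6.40 at the rate of silent genes. The groups did not overlap, at levels of at most 0.0928 FPKM. MX2 and RSAD2 (viperin) had 0 to 3 and 1 to 13 fragments in shNC and 0 to 7 and 6 to 7 in shACAT2 libraries. XAF1 had 5 fragments in shACAT2-3, where a silent gene of its length would receive 4.91, and none in the other 5 libraries.

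**Figure D4:**
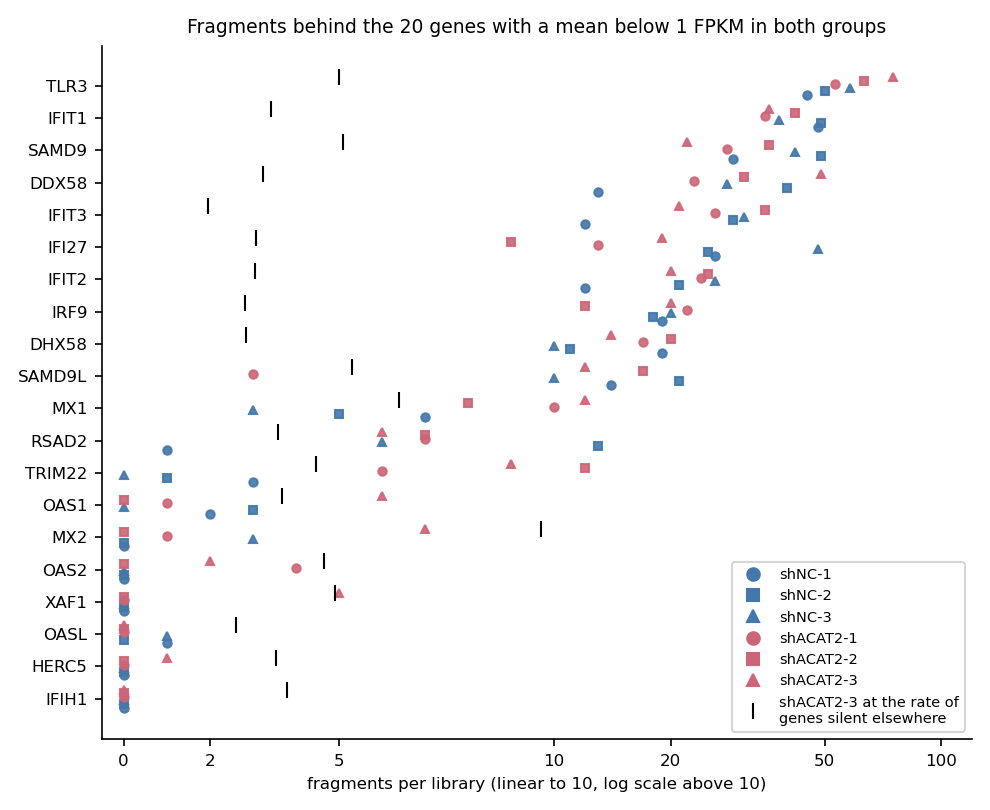
Fragments per library of the 20 genes with a mean below 1 FPKM in both groups, on an axis that is linear to 10 and logarithmic above. Blue and red marks are shNC and shACAT2 libraries, and each black bar is the number of fragments that a gene of that length would receive in shACAT2-3 at the rate of genes silent in the other libraries. The genes from TLR3 to DHX58 lie clear of the bars, whereas from MX2 down the marks of shACAT2-3 lie near or below them.

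The other genes of the pathway were read from a list of 109 ligands, receptors, relay proteins, regulators and further stimulated genes. Of these, 57 reached 1 FPKM. Limma called 3 of the 57 higher in shACAT2 cells and 2 lower, and 52 were not called. Over all genes tested it called 3.3% higher and 1.81% lower. The 57 genes had a median log2 fold change of 0.07. With the replicate number as a block, 8 were called higher and 3 lower, where the shares over all genes also rose, to 7.67% and 4.81%. Limma-voom on the wider set called 5 of 67 higher and 4 lower, where it called 4.25% of all its genes higher and 2.84% lower. The interferons themselves were near absent, since 14 of the 21 ligand genes had no fragment in any library and the summed FPKM of all 21 was at most 0.377.

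Among 11 receptors and kinases, both genes called were receptor chains, and both rose. IFNGR1, the ligand-binding chain of the type II interferon receptor, lies on chromosome 6 from 137197484 to 137219449 (ENSG00000027697). It was measured at 7.34, 8.39 and 7.93 FPKM in shNC and at 18.2, 19.7 and 18.2 FPKM in shACAT2 cells. The groups lay far apart, at means of 7.89 ± 0.530 and 18.7 ± 0.880 FPKM (SD, n = 3 each), 2.37 times as high in shACAT2 cells, and limma gave a log2 fold change of 1.15 with a standard error of 0.09 (adjusted p = 0.003). The call was kept with every library left out in turn (limma adjusted p at most 0.035), and none of its exon bases are shared with another gene.

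IFNAR1, a chain of the type I interferon receptor, was measured at 4.26, 5.39 and 5.00 FPKM in shNC and at 6.97, 7.78 and 8.62 FPKM in shACAT2 cells. The shACAT2 libraries all lay higher, and limma gave a log2 fold change of 0.58 with a standard error of 0.12 (adjusted p = 0.038). Its partner IFNAR2 lay at 0.201 to 0.388 FPKM in shNC and 0.117 to 0.271 FPKM in shACAT2 libraries, with overlap, and 83.2% of its exon bases are shared with other genes, so its fragments are uncertain. Named for their place below the receptors after their values were seen, JAK1 and TYK2 were not called. JAK1 was measured at 10.2 to 10.4 against 8.95 to 12.7 FPKM, with overlap. TYK2 was measured at 28.8 to 33.2 against 20 to 28.4 FPKM, without overlap (limma adjusted p = 0.201).

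Of 19 genes of sensing and relay, 10 were tested and none was called. Among 10 negative regulators, CYLD, a deubiquitinase that restrains RIG-I signalling, rose from 2.14, 2.69 and 2.5 FPKM in shNC to 3.83, 4.41 and 4.83 FPKM in shACAT2 cells (log2 fold change 0.64, standard error 0.11, limma adjusted p = 0.028). The groups did not overlap. Of 48 further stimulated genes 29 were tested, and 2 fell. SAMHD1, which depletes nucleotides, fell from 3.72, 3.61 and 3.85 to 2.36, 2.44 and 2.38 FPKM (log2 fold change −0.48, standard error 0.08, limma adjusted p = 0.027). TRIM14, a MAVS-binding protein, fell from 32.7, 30.0 and 31.4 to 23.9, 22.3 and 22.8 FPKM (log2 fold change −0.43, standard error 0.09, limma adjusted p = 0.048). Of the exon bases of SAMHD1 and TRIM14, 10.3% and 7.72% are shared with a gene on the opposite strand. The calls of IFNAR1, CYLD, SAMHD1 and TRIM14 were each lost when any library except shACAT2-1 was left out, with limma adjusted p up to 0.155, 0.131, 0.155 and 0.212. All 4 calls were also lost with no filter (0.123, 0.0998, 0.096 and 0.093), those of IFNAR1 and CYLD with library-size scaling (0.073 and 0.051) and that of TRIM14 with upper-quartile scaling (0.053). Over all genes, limma called 706 in the main fit and 63 to 135 without a shNC library or shACAT2-2. It called 704 without shACAT2-3, 862 without shACAT2-1 and 209 of 41161 with no filter. With library-size and upper-quartile scaling it called 885 and 775.

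Limma-voom on the wider set called 4 genes more, IFITM2 and TNFAIP3 above and IFNLR1 and DTX3L below. IFITM2, a membrane protein that blocks virus entry, was measured at 28.0, 28.8 and 23.0 against 58.3, 43.6 and 38.0 FPKM (limma-voom log2 fold change 0.79, adjusted p = 0.027, limma adjusted p = 0.056). Reads of IFITM2 and its close copies may be divided between them. IFNLR1, a receptor chain for type III interferon, was measured at 1.51, 1.25 and 1.51 against 0.669, 0.807 and 0.677 FPKM (limma-voom log2 fold change −0.98, adjusted p = 0.017, limma adjusted p = 0.075). TNFAIP3, which encodes the regulator A20, was measured at 0.436 to 0.543 against 1.11 to 1.24 FPKM, and DTX3L, the partner of PARP9, at 2.09 to 2.34 against 1.14 to 1.51 FPKM. All 4 genes had groups that did not overlap.

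**Figure D5:**
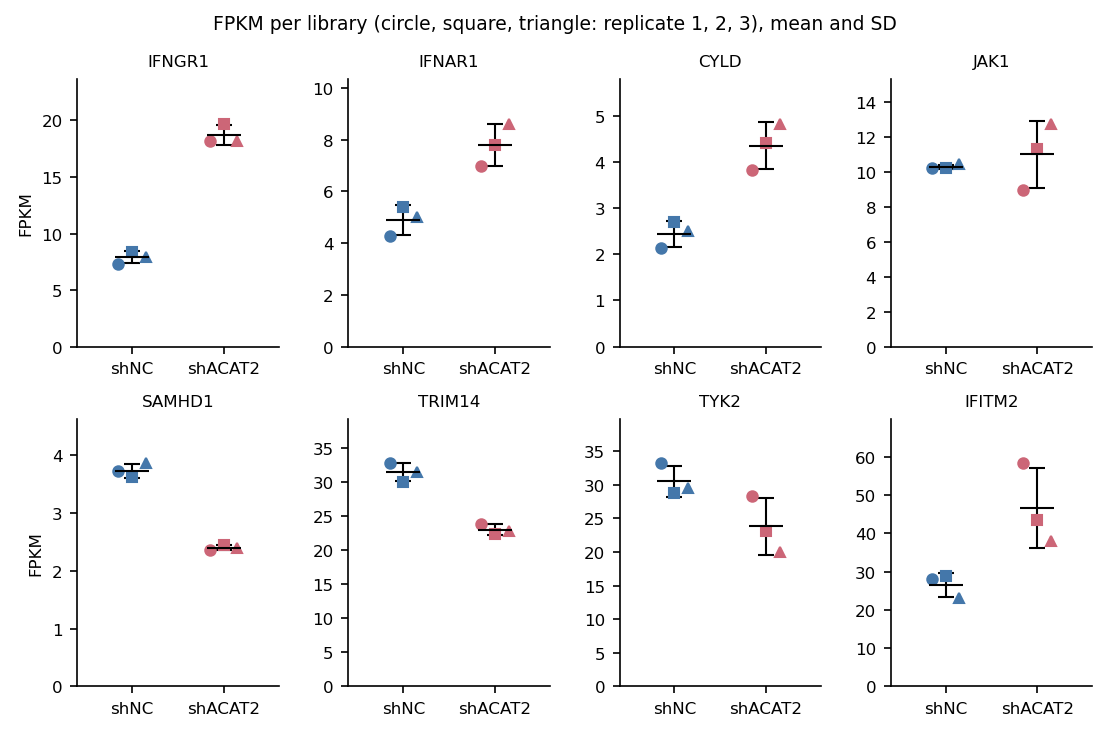
FPKM per library on linear axes from 0 for 8 genes of the wider pathway, with circles, squares and triangles for replicates 1, 2 and 3 and bars for the mean and SD of 3 libraries. IFNGR1 lies at 7.34 to 8.39 in shNC and 18.2 to 19.7 in shACAT2 libraries, IFNAR1 and CYLD are higher and SAMHD1 and TRIM14 lower in shACAT2 cells, and JAK1, TYK2 and IFITM2 were not called by limma.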

How the data were processed

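RNA-seq of HGC-27 cells, 3 shNC and 3 shACAT2 libraries, was analysed. The authors deposited FPKM values for 58735 genes. The submitters' processing notes name HISAT2 2.0.5, featureCounts 1.5.0-p3, DESeq2 1.20.0 and the build hg38, and the strand setting is not given in the sources used here. Exons of GENCODE 29, summed by gene, gave the length in the table for all 58735 genes. Each FPKM value times its gene length is a whole multiple of a step per library, so fragments could be read back (100% whole within 0.02). Groups and replicate numbers came from the sample titles.

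The members and gene lists were chosen with earlier results of these data known. All members are accounted for. Values in every library are given for members that passed a test and for sensors, adaptor, transcription factors, EIF2AK2 and ADAR, and other pathway genes are named where called. Others named with values were chosen after their values were seen. A gene of the pathway list, which its counts include, and a leukocyte marker, left out of the sum, are not reported here. Limma 3.58.1 (R 4.3.3, with a trend) was run on log2(FPKM + 1), a scale that understates changes of low genes, for genes whose mean reached 1 FPKM in a group. P-values were Benjamini-Hochberg adjusted over all 13832 genes and called under 0.05. The limma step was tested on simulated data. Limma-voom used the fragments of genes with at least 10 fragments in 3 libraries. Same-numbered libraries deviated together from their group means (correlations 0.445, 0.126 and 0.171), so the numbers were tried as a pairing. For replicates 2 and 3 this pairing was not clear. The value of shNC-2 with shACAT2-3 (0.198) exceeded both of theirs, and that of shNC-3 with shACAT2-2 (0.141) exceeded the lower. The pairing entered the replicate block and the same-numbered comparisons, and not the main fit. The alternatives were other scalings, no filter, a pseudocount of 0.1, the replicate block, both limma-voom fits, shNC-2 averaged with shNC-3, and each library left out. Limma-voom without shACAT2-3 was added after seeing the data. Python 3.11.15 with pandas 2.3.3 and matplotlib 3.10.9 was used for the other steps.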

Additional observations from a re-analysis of the deposited data

How the results depend on the processing

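Of the 19 genes tested, 14 kept the sign of their log2 fold change in all 15 alternatives. The log2 fold change of TRIM25 ranged from −0.76 to −0.63 and its adjusted p from 0.0059 in limma-voom to 0.084 in limma. The count of members called lower was 1 in all alternatives but those that averaged shNC-2 and shNC-3 (0) or left out a library (0 to 1). In the fits with 0, calls over all genes fell from 706 to between 63 and 135. The count called higher was 0 in all but limma-voom on the wider set without shACAT2-3, an alternative added after seeing the data, which called 1 (IFI6). Members whose groups did not overlap numbered 1 above and 6 below with library-size scaling, 3 above when shNC-2 was averaged with shNC-3, and 2 to 5 above and 4 to 7 below with a library left out. Averaging or leaving out a library can only keep or raise these counts.

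With the replicate block, which uses the pairing of the replicate numbers, 8 other pathway genes were called higher, against 3 without it, while the calls over all 13832 genes rose from 706 to 1727. It changed no call of a member, and TRIM25 was called in both. Of these pathway genes, no filter called 1 higher and 0 lower, upper-quartile scaling 1 lower, both limma-voom fits 5 higher and 4 lower, limma-voom on the wider set without shACAT2-3 9 higher, averaging 1 higher and 0 lower, and fits with a library left out 1 to 4 higher and 0 to 2 lower. Calls over all genes in either direction moved too, to 209 of 41161 with no filter and 775 with upper-quartile scaling. The limma-voom fits called 1016 of 13832 and 1155 of 16299, and 1580 of 16299 without shACAT2-3. Averaging called 83, and fits with a library left out called 63 to 862.

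The sign turned for IRF3 (−0.16 to 0.34 with a library left out), STAT2 (−0.060 to 0.0069), TRIM21 (−0.12 to 0.13, and −0.0057 when shNC-2 was averaged with shNC-3), IFIT5 (−0.055 to 0.14, and −0.0096 with library-size scaling) and BST2 (0.00036 in limma-voom without shACAT2-3). None of these was called in any alternative, and the cause was not tested. Other scalings moved the median log2 fold change of all genes tested to between −0.028 and 0.036. Depth limits the genes under about 10 fragments, for which neither fit gave a value.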
